A study of Mus musculus with 10 samples.

Results

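Wnt signalling genes were followed in newly made RNA of mouse embryonic stem cells. The members were chosen by name alone: Wnt ligands, R-spondins, Frizzled and Lgr receptors, the coreceptors Lrp5 and Lrp6, secreted antagonists, cytoplasmic transducers, receptor ubiquitin ligases and nuclear factors. The name list found 59 genes among the 24901 genes of the deposited table. They were 19 Wnt ligands, 4 R-spondins, 9 receptors or coreceptors, 9 secreted antagonists, 2 receptor ubiquitin ligases, 11 cytoplasmic transducers and 5 nuclear factors. The values are intronic RPKM, that is, intron reads per length of intron and per depth of the library. This puts genes of unlike length on a common scale, but a value can hold reads of an overlapping gene. Genes with no intron have no such value: Fzd1, Fzd2, Fzd7, Fzd8, Fzd9 and Fzd10 have a single exon in GENCODE M21 and were not analysed here.

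Wnt ligands bind a Frizzled receptor together with Lrp5 or Lrp6. Without ligand, a complex of Axin, Apc and the kinase Gsk3 marks β-catenin (Ctnnb1) for breakdown, and when that complex is blocked β-catenin enters the nucleus and acts with the TCF and LEF factors. Several genes that the pathway turns on, such as Axin2, Notum, Znrf3, Rnf43, Nkd1, Sp5 and Lef1, restrain or modify it in turn. In mouse embryonic stem cells the pathway is known for supporting self-renewal, in part by relieving repression by Tcf7l1. All cells here were grown with CHIR99021, an inhibitor of Gsk3 that turns on β-catenin signalling without ligand, so the comparisons were made with the pathway already stimulated.

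The study asked how a lysine of Elongin A (EloA), a subunit of a transcription elongation complex, and Eed, a core subunit of the Polycomb repressive complex PRC2, affect transcription. The groups were EloA_K754M and EloA_K754R, cells edited so that the lysine is methionine or arginine, and EloA_WT, with 2 single libraries each, and Eed_null and CJ7_WT, given as 1 pooled column each from 2 samples. All 5 groups were grown in serum with LIF, 1 µM PD0325901 (a MEK inhibitor) and 3 µM CHIR99021, and were given 2 mM bromouridine for 10 min before the labelled RNA was purified. The labels conflict: titles set the groups, but the line field reads CCE28 for EloA_WT and Eed_null and CJ7 for the other 3 groups, the growth protocol names CJ7 for all, and the Eed null samples carry an EloA null genotype. If the line field is right, the substitution and the line cannot be told apart, and neither can loss of Eed and the line. The labels do not say whether an edited line is 1 clone, or whether replicates are separate cultures, so the spread behind each p-value may be technical.

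The libraries held 26368657 to 39193529 recovered intronic reads, pooled Eed_null 72388719 and pooled CJ7_WT 86756045. Embryonic stem cell markers such as Pou5f1, Nanog and Zfp42 were detected in all 8 columns, and the summed level of 8 of them was 143 to 343 RPKM. Markers of embryonic fibroblasts, the feeder cells named in the growth protocol, were present too. Their sum over 17 genes was 27.4 and 23.7 RPKM in EloA_K754M, 30.1 and 26.7 in EloA_K754R, 19.8 and 19.3 in EloA_WT, 26.1 in Eed_null and 27.5 in CJ7_WT, with Fn1 the highest and 1 marker, Twist1, at 0 in 1 library. The median of 240 olfactory and vomeronasal receptor genes, which embryonic stem cells do not use, was 0 and 0.132 RPKM in the 2 EloA_K754M libraries, 0.00263 and 0.0472 in EloA_K754R, and 0 and 0.0392 in EloA_WT. It was 0 in both pooled columns. Of the 59 members, 22 were above 3 times that median in every column. Where the median was 0, any value above 0 passed. The count was set by EloA_K754M replicate 2, which had the highest median and 22 members above the limit.

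The interior of the pathway had far higher intronic RPKM than its ligands. Of the 11 cytoplasmic transducers 9 averaged at least 0.5 RPKM over the 8 columns, and so did 6 of the 9 receptors or coreceptors and 3 of the 5 nuclear factors, but 0 of the 19 Wnt ligands and 0 of the 4 R-spondins. The 10 highest members were Ctnnb1, Tcf7l1, Gsk3b, Znrf3, Apc, Lrp6, Fzd5, Lgr4, Axin1 and Gsk3a, from 11.3 RPKM for Ctnnb1 to 2.29 RPKM for Gsk3a as means over the columns.

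**Figure D1:**
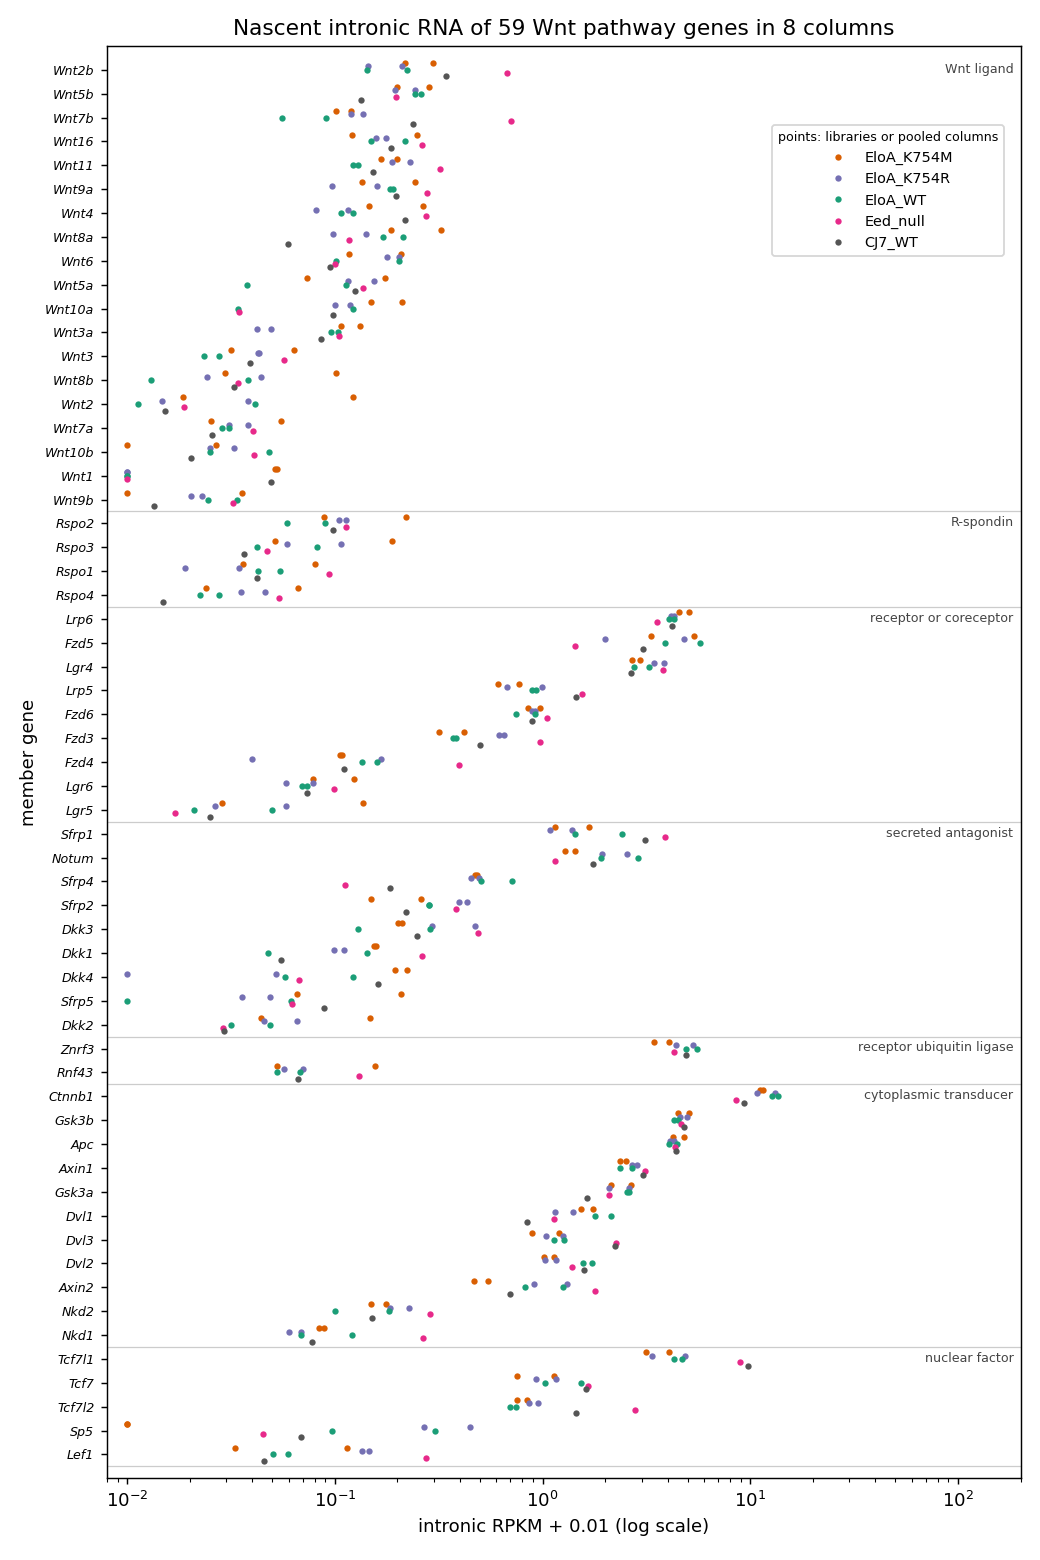
Intronic RPKM plus 0.01 (log axis) of the 59 Wnt pathway genes, ordered by role and, within a role, by mean level. Each point is 1 library or 1 pooled column. Ligands and R-spondins sit below 1 RPKM, and Ctnnb1 lies highest at 8.55 to 13.6 RPKM.

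Ligand genes averaged between 0.0141 RPKM (Wnt9b) and 0.272 RPKM (Wnt2b), with a median of 0.107 RPKM over the 19 genes. Wnt2b, Wnt5b, Wnt7b, Wnt16, Wnt11 and Wnt9a were the highest. Wnt1 was listed at 0 in 5 of the 8 columns and had at most 3 reads in any of them. R-spondins, which bind Lgr receptors and strengthen Wnt signals, averaged 0.0263 to 0.101 RPKM. Several silent or nearly silent members were highest in EloA_K754M replicate 2, the library with the highest level of olfactory and vomeronasal receptor genes. Wnt2 had 0.00861 and 0.113 RPKM in EloA_K754M, 0.0047 and 0.028 RPKM in EloA_K754R, and 0.00132 and 0.0312 RPKM in EloA_WT, where replicate 2 was the higher library in each group. Lgr5, an R-spondin receptor and Wnt target known as a marker of intestinal stem cells, had 0.0187 and 0.127 RPKM in EloA_K754M, 0.0165 and 0.0479 RPKM in EloA_K754R, and 0.011 and 0.04 RPKM in EloA_WT. Differences in these low genes were therefore not read as group differences.

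Lrp6 had the highest mean over the columns of the receptor genes, at 3.53 to 5.08 RPKM, and lay above its relative Lrp5 at 0.601 to 1.54 RPKM in every column. Among the Frizzled genes with a value, Fzd5 was listed at 1.43 to 5.7 RPKM, above Lrp6 in 3 of the 8 columns, but its short introns gave only 9 to 41 reads a column. Fzd6 had 0.738 to 1.05 RPKM and Fzd3 0.307 to 0.961 RPKM, and Fzd4 at most 0.387 RPKM. Lgr4, at 2.66 to 3.83 RPKM, was far above Lgr6 (0.0482 to 0.114 RPKM) and Lgr5 (0.00706 to 0.127 RPKM).

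In the destruction complex, Gsk3b had 4.3 to 5.04 RPKM and Gsk3a 1.62 to 2.66 RPKM. Apc, the scaffold, had 4.06 to 4.8 RPKM and Axin1, the constitutive Axin, 2.35 to 3.1 RPKM. Between columns, Gsk3b, Apc and Axin1 stayed within these narrow ranges. The Dishevelled genes, which carry the signal from Frizzled to Axin, had 0.832 to 2.13 RPKM (Dvl1), 1 to 1.72 RPKM (Dvl2) and 0.877 to 2.26 RPKM (Dvl3).

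Among the nuclear factors, Tcf7l1, the repressor of the family, was the highest. Tcf7l1 had 4.07 and 3.12 RPKM in EloA_K754M, 4.82 and 3.34 in EloA_K754R, and 4.29 and 4.7 in EloA_WT, against 8.94 in Eed_null and 9.72 in CJ7_WT. Both pooled columns thus lay above all 6 libraries. The same held for 6 other members of at least 0.5 RPKM, Axin1, Dvl3, Tcf7, Tcf7l2, Lrp5 and Sfrp1, and the reverse held for Ctnnb1 and Dvl1. With 1 pooled column a group, this was not tested. The share of all genes with this pattern was not counted, so the pattern is not read as a trait of these members. Tcf7 and Tcf7l2, which mainly activate with β-catenin, had 0.741 to 1.65 RPKM and 0.684 to 2.76 RPKM, and Lef1 at most 0.263 RPKM.

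The start regions of 5 feedback genes are shown because the comparisons below turn on them: Axin2 and Sp5 were lowest in EloA_K754M, and Axin2, Lef1, Nkd1 and Dkk1 were highest in Eed_null. Each line gives the 250 bases before the start listed by RefSeq (GRCm38.p6, read on the gene's strand), with copies of CTTTGA, the core letters of the TCF and LEF motif, or its reverse TCAAAG in capitals. They lie at chr11:108920099-108920348 (plus strand) for Axin2, chr2:70474673-70474922 (plus) for Sp5, chr3:131110047-131110296 (plus) for Lef1, chr8:88527383-88527632 (plus) for Nkd1 and chr19:30549497-30549746 (minus) for Dkk1.
Axin2: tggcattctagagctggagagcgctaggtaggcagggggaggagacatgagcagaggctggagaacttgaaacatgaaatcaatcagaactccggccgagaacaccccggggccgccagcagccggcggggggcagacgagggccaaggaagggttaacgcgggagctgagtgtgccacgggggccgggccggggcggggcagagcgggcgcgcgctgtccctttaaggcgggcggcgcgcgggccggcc
Sp5: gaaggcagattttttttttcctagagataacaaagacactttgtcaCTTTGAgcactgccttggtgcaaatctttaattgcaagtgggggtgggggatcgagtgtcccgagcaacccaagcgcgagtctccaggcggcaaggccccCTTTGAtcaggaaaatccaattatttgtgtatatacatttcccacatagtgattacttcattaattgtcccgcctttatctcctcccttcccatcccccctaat
Lef1: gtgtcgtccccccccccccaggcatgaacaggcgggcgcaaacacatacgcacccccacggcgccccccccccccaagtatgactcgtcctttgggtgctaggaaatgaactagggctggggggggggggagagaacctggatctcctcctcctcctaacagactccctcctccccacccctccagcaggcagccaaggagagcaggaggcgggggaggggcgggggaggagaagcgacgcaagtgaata
Nkd1: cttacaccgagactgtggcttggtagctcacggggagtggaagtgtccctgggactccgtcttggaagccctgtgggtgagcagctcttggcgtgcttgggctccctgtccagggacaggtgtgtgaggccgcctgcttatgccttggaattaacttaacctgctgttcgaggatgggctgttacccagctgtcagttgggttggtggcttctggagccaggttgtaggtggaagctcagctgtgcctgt
Dkk1: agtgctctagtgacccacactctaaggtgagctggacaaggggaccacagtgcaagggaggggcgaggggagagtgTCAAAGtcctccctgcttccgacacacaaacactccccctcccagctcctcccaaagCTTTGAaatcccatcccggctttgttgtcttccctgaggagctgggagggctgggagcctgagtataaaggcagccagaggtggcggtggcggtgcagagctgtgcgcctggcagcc

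Sp5 and Dkk1 each held 2 copies in this window, and Axin2, Nkd1 and the Lef1 start shown held 0. Lef1 has 4 listed starts, of which the first is shown; the last, inside the gene at chr3:131156044-131156293, holds 2 copies. Of all 32841 promoter windows of this length 13.8% held at least 1 copy and 1.37% held 2 or more. Among the 50 windows of the 40 members found in the table, 7 held a copy, a share of 14% close to that of all windows. These windows of members had a median of 16 CpG, against 6 CpG over all windows. Axin2 had 24, Lef1 11, and Sp5, Nkd1 and Dkk1 6 each. The letters describe the windows only: binding was not measured.

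**Figure D2:**
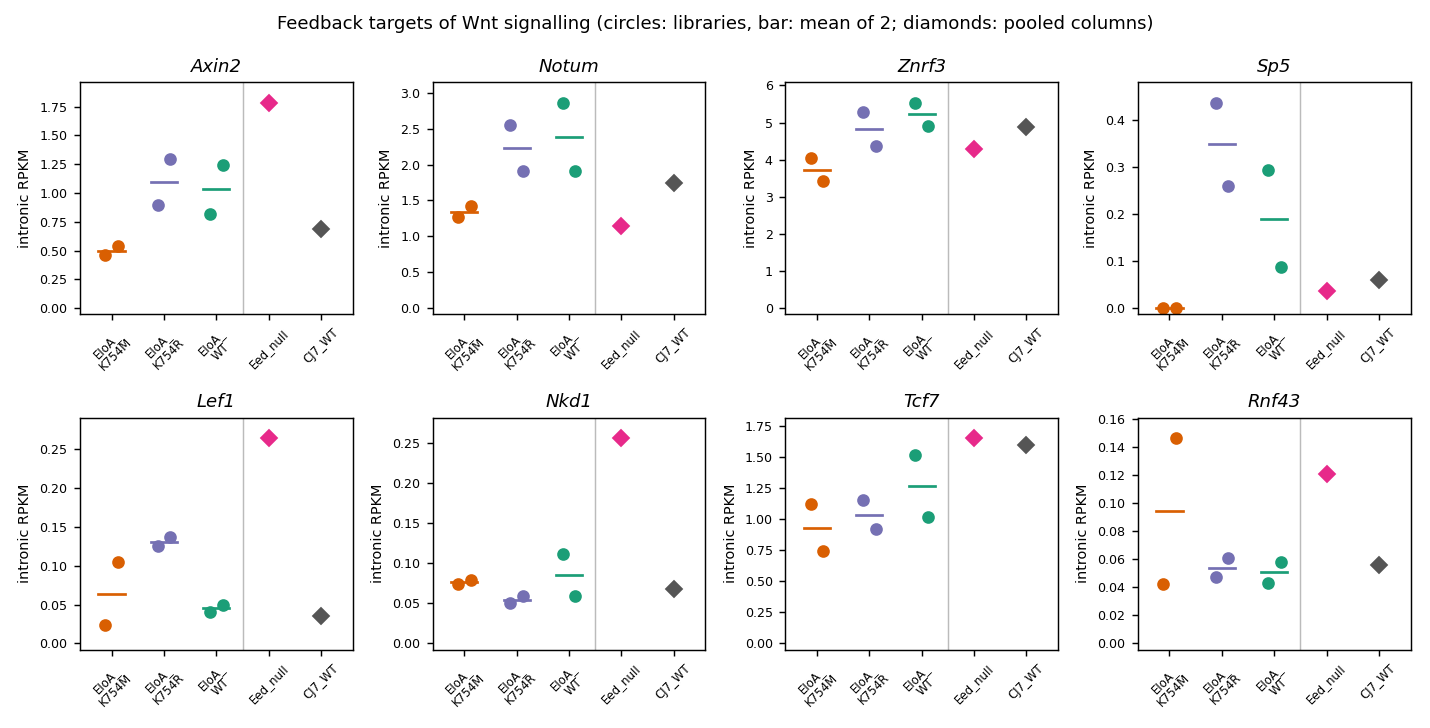
Intronic RPKM of 8 feedback targets of Wnt signalling by group. Circles are single libraries with a bar at the mean of 2, diamonds are pooled columns, and each panel has its own scale from 0. Both EloA_K754M circles of Axin2, Notum, Znrf3 and Sp5 lie below the other 4 circles; Axin2, Lef1 and Nkd1 are highest in Eed_null and Notum lowest.

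In EloA_K754M, the feedback genes Axin2, Notum and Znrf3 were lower than in EloA_WT in both libraries, but no Wnt pathway gene passed the test. Axin2, the inducible partner of Axin1 and a general reporter of the pathway, had 0.457 and 0.536 RPKM in EloA_K754M, against 0.817 and 1.25 RPKM in EloA_WT. The groups did not overlap, with a log2 change of -0.90 (SE 0.26, limma adjusted p = 0.197). Notum, an enzyme that inactivates Wnt ligands by removing their lipid, had 1.27 and 1.42 RPKM in EloA_K754M, against 2.86 and 1.91 RPKM in EloA_WT. Its log2 change was -0.76 (SE 0.23, limma adjusted p = 0.218), and -0.47 without EloA_WT replicate 1. Znrf3, which clears Frizzled from the cell surface, had 4.04 and 3.41 RPKM in EloA_K754M, against 5.53 and 4.91 RPKM in EloA_WT, a log2 change of -0.48 (SE 0.16, limma adjusted p = 0.235). Sp5, a transcription factor that dampens Wnt targets, was listed at 0 in both EloA_K754M libraries, against 0.293 and 0.0867 RPKM in EloA_WT. The EloA_WT values rest on 4 and 1 reads, and a count of 0 allows up to 3 reads, so no fold is given.

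Across the pathway, 39 members had the mean of at least 0.1 RPKM needed for the test in the 6 libraries; the others, mostly ligands and R-spondins, are given by level only. Limma called 0 of them in EloA_K754M against EloA_WT at an adjusted p under 0.05, where 0.218% of all 15161 tested genes were called. At an unadjusted p under 0.05 there were 5 members (12.8%) against 15.4% of all genes. Limma-voom on recovered reads called 0 members and 302 of all 15154 genes it tested. Of the 39 members 16 were higher and 23 lower, with a median log2 change of -0.04 against -0.06 over all genes. In 7 members (17.9%) both EloA_K754M libraries were above both EloA_WT libraries, where 17.0% of all genes were. In 12 members (30.8%) they were below, where 27.2% of all genes were. Neither share stands far from that of all genes.

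The largest negative changes among well transcribed members, those of Axin2, Notum, Dvl2 and Znrf3, were all of genes on chromosome 11. With Tcf7 and Wnt9a, 6 tested members lie there, and all 6 had a negative change, with a median of -0.53 on the log2 scale. All 1314 tested genes of chromosome 11 had a median of -0.46 in EloA_K754M against EloA_WT, and the genes elsewhere -0.03. The chromosome took 6.93% and 6.88% of the reads in EloA_K754M, 6.97% and 6.8% in EloA_K754R, and 9.43% and 9.3% in EloA_WT. With each library's chromosome medians made equal, the changes were -0.44 for Axin2, -0.29 for Notum, -0.12 for Dvl2 and -0.02 for Znrf3. Dvl2 had 1 and 1.12 RPKM in EloA_K754M, against 1.55 and 1.72 RPKM in EloA_WT, a log2 change of -0.58 (SE 0.14, limma adjusted p = 0.154) before that step.

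Away from chromosome 11, the largest changes of well transcribed members whose groups did not overlap were those of Lrp5, with a log2 change of -0.36 (SE 0.22, limma adjusted p = 0.497), and Tcf7l1, with -0.32 (SE 0.22, limma adjusted p = 0.541). Without EloA_K754M replicate 2 they were -0.21 and -0.14, and without replicate 1 that of Tcf7l1 was -0.51. Lrp5 had 0.762 and 0.601 RPKM in EloA_K754M, against 0.919 and 0.881 RPKM in EloA_WT. Ctnnb1 had 11.5 and 11.1 RPKM in EloA_K754M, against 12.6 and 13.6 RPKM in EloA_WT, and its log2 change of -0.21 (SE 0.15, limma adjusted p = 0.549) did not pass the test. Lrp6 and Gsk3b lay slightly higher in both EloA_K754M libraries, by 0.20 (SE 0.12) and 0.12 (SE 0.12) on the log2 scale.

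In EloA_K754R, Axin2, Notum and Znrf3 overlapped with EloA_WT, and the largest differences among well transcribed members whose groups did not overlap lay in the receptor Fzd3, the Dishevelled genes Dvl1 and Dvl2 and the antagonist Sfrp1. Fzd3, a Frizzled also known for axon guidance and planar polarity, had 0.604 and 0.64 RPKM in EloA_K754R, against 0.361 and 0.373 RPKM in EloA_WT. Both EloA_K754R libraries were higher, with a log2 change of 0.63 (SE 0.18, limma adjusted p = 0.108). Limma-voom on recovered reads called it, with a log2 change of 0.91 and an adjusted p of 0.0202, and over the alternatives its adjusted p ran from 0.0202 to 0.330. With chromosome medians made equal the change was 0.36. Dvl1 had 1.39 and 1.14 RPKM in EloA_K754R, against 2.13 and 1.78 RPKM in EloA_WT, a log2 change of -0.59 (SE 0.16, limma adjusted p = 0.0983). With chromosome medians made equal the change of Dvl1 was -0.28. Dvl2 had 1.01 and 1.15 RPKM in EloA_K754R, against 1.55 and 1.72 RPKM in EloA_WT, a log2 change of -0.56 (SE 0.14, limma adjusted p = 0.0839). Dvl2 lies on chromosome 11, whose tested genes had a median of -0.56 in this comparison against -0.11 elsewhere, and with chromosome medians made equal its change was 0.0098.

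Axin2 had 0.896 and 1.3 RPKM in EloA_K754R, against 0.817 and 1.25 RPKM in EloA_WT, and the groups overlapped. Its log2 change was 0.09 (SE 0.26, limma adjusted p = 0.872), where the genes of its chromosome were lower; with chromosome medians made equal it was 0.65. Notum and Znrf3, also on chromosome 11, overlapped between the groups as well, with log2 changes of -0.08 (SE 0.23) and -0.12 (SE 0.16). With chromosome medians made equal they were 0.49 and 0.45. Sfrp1 and Sfrp4, secreted proteins that can bind Wnt ligands, had log2 changes of -0.57 (SE 0.30, limma adjusted p = 0.297) and -0.29 (SE 0.20, limma adjusted p = 0.407). Both moved with the EloA_WT libraries: without replicate 1 they were -0.21 and -0.08, and without replicate 2 -0.94 and -0.51. With chromosome medians made equal they were -0.30 and -0.18. Tcf7l2 had 0.941 and 0.855 RPKM in EloA_K754R, against 0.684 and 0.732 RPKM in EloA_WT, a log2 change of 0.30 (SE 0.14, limma adjusted p = 0.251). The sum of fibroblast markers given above was higher in both EloA_K754M and EloA_K754R libraries than in EloA_WT, and its part in these values was not tested.

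The remaining feedback genes were low or overlapped. Lef1, whose mean was too low for the test, had 0.0232 and 0.104 RPKM in EloA_K754M, 0.125 and 0.137 RPKM in EloA_K754R, and 0.0404 and 0.0496 RPKM in EloA_WT. Both EloA_K754R libraries were above the other 4. Nkd1 and Rnf43 were too low for it as well. Nkd1 had 0.0737 and 0.0786 RPKM in EloA_K754M, 0.05 and 0.0586 RPKM in EloA_K754R, and 0.111 and 0.0586 RPKM in EloA_WT. Tcf7 had 1.12 and 0.741 RPKM in EloA_K754M, 1.15 and 0.922 RPKM in EloA_K754R, and 1.52 and 1.02 RPKM in EloA_WT, and all 3 groups overlapped. Rnf43 had 0.0426 and 0.146 RPKM in EloA_K754M, 0.0472 and 0.0606 RPKM in EloA_K754R, and 0.0429 and 0.0583 RPKM in EloA_WT, so its 1 high value was that of EloA_K754M replicate 2. Dkk1 had at most 3 reads in each of the 6 libraries.

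Limma called 0 of the 39 members in EloA_K754R against EloA_WT, where 3.48% of all genes were called. At an unadjusted p under 0.05 there were 3 members (7.69%) against 25.1% of all genes. Limma-voom called 1 of 39 members, Fzd3, and 1232 of all 15154 genes it tested. In 11 members (28.2%) both EloA_K754R libraries were above both EloA_WT libraries, where 18.0% of all genes were. In 7 members (17.9%) they were below, where 38.8% of all genes were. The median log2 change was -0.02 over the members and -0.14 over all genes. Making library medians equal moved the median of all genes by 0.19, to 0.05, and the members' to 0.17, with 30 members then positive and 9 negative instead of 18 and 21.

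**Figure D3:**
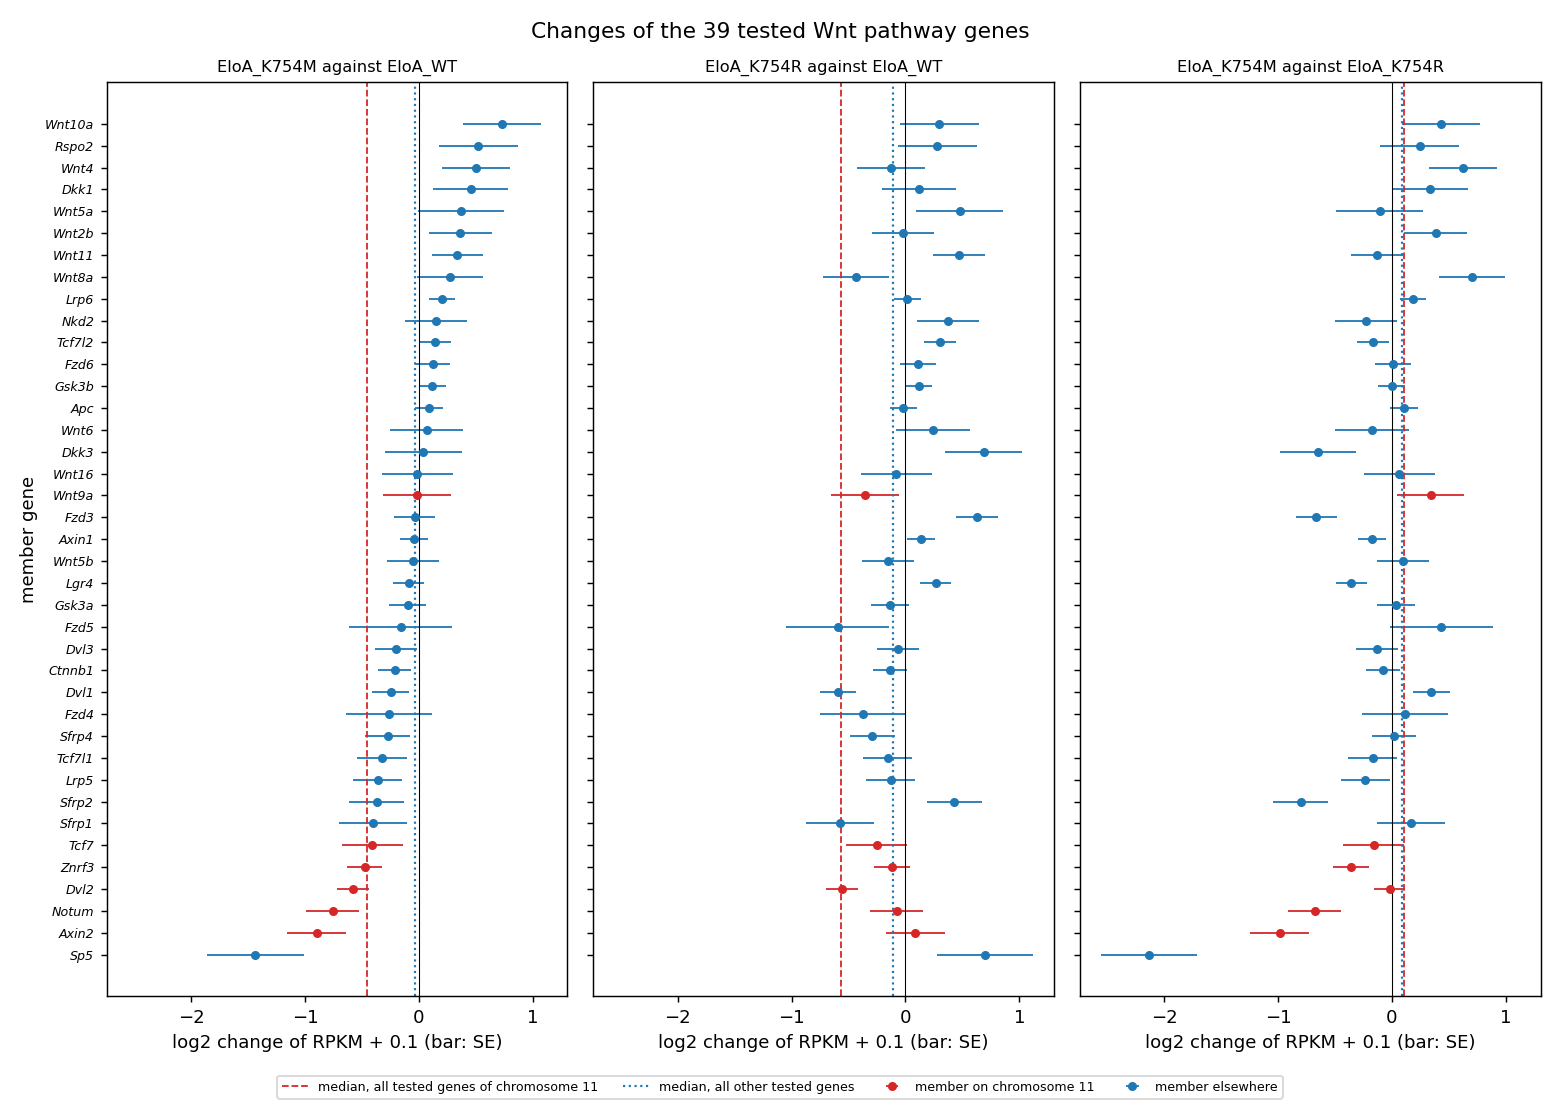
Log2 change of RPKM plus 0.1 with its SE for the 39 tested Wnt pathway genes, in the same order in each panel. Red points are members on chromosome 11, and the dashed and dotted lines are medians of all tested genes on and off that chromosome. Notum and Axin2 lie left of the dashed line in the left and right panels, while Dvl2 lies close to it in all 3.

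Between the substitutions, Axin2, Notum, Znrf3 and Sp5 were lower in both EloA_K754M libraries than in both EloA_K754R libraries, and no member passed the test. Here chromosome 11 was even, with a median log2 change of 0.10 for its genes and 0.09 elsewhere. Axin2 had 0.457 and 0.536 RPKM in EloA_K754M, against 0.896 and 1.3 RPKM in EloA_K754R. Its log2 change was -0.99 (SE 0.26, limma adjusted p = 0.143), and -1.09 with chromosome medians made equal. Notum had 1.27 and 1.42 RPKM in EloA_K754M, against 2.55 and 1.91 RPKM in EloA_K754R, a log2 change of -0.68 (SE 0.23, limma adjusted p = 0.213). Znrf3 had 4.04 and 3.41 RPKM in EloA_K754M, against 5.28 and 4.36 RPKM in EloA_K754R, a log2 change of -0.36 (SE 0.16, limma adjusted p = 0.293), and of -0.22 without EloA_K754R replicate 1. In each of these genes the groups did not overlap. Sp5 was listed at 0 in EloA_K754M, against 0.436 and 0.26 RPKM (5 and 4 reads) in EloA_K754R.

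Outside the feedback genes, the receptors Fzd3 and Lgr4 were lower and Dvl1 was higher in both EloA_K754M libraries. Fzd3 had 0.307 and 0.409 RPKM in EloA_K754M, against 0.604 and 0.64 RPKM in EloA_K754R. Its log2 change was -0.67 (SE 0.18, limma adjusted p = 0.150), -0.37 with chromosome medians made equal, and limma-voom called it with -0.90 and an adjusted p of 0.0351. Lgr4 had 2.93 and 2.68 RPKM in EloA_K754M, against 3.83 and 3.42 RPKM in EloA_K754R, a log2 change of -0.36 (SE 0.14, limma adjusted p = 0.248). Dvl1 had 1.74 and 1.52 RPKM in EloA_K754M, against 1.39 and 1.14 RPKM in EloA_K754R, a log2 change of 0.35 (SE 0.16, limma adjusted p = 0.325), and of 0.21 without EloA_K754R replicate 2. With chromosome medians made equal it was 0.06.

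Limma called 0 of the 39 members in EloA_K754M against EloA_K754R, where 0.290% of all genes were called. At an unadjusted p under 0.05 there were 6 members (15.4%) against 18.5% of all genes. Limma-voom called 1 of 39 members, Fzd3, and 476 of all 15154 genes it tested. In 7 members (17.9%) both EloA_K754M libraries were above both EloA_K754R libraries, where 31.9% of all genes were, and in 11 members (28.2%) they were below, where 18.6% of all genes were. Both EloA_K754M libraries lay below the other 4 libraries in 5 members (12.8%), where 8.0% of all genes did. They were Axin2, Notum, Znrf3, Sp5 and Sfrp2, a secreted Wnt-binding protein; Sfrp2 was picked out after its values were seen. They lay above the other 4 in 4 members (10.3%), where 9.47% of all genes did: Dkk1, Lrp6, Wnt4 and Wnt10a, the last 2 named after their values were seen. Dkk1 had 3 reads in each EloA_K754M library and at most 3 in the other 4, so its place is not read as a group difference. Wnt10a rests on 21 and 31 reads in EloA_K754M. All 4 mutant libraries lay below both EloA_WT libraries in 3 members (7.69%), Dvl1, Dvl2 and Sfrp4, where 18.8% of all genes did. They lay above in 3 members (7.69%), Wnt11, Gsk3b and Tcf7l2, where 7.64% of all genes did. The comparisons with EloA_WT share its 2 libraries, and the 3 comparisons share libraries in pairs.

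In Eed_null, feedback genes of the pathway differed from CJ7_WT in both directions: Axin2, Lef1, Nkd1 and Dkk1 were higher and Notum was lower. Each group is 1 pooled column, so these ratios have no replicate check, and their exact 95% intervals cover counting error only. Axin2 had 1.78 RPKM in Eed_null and 0.684 RPKM in CJ7_WT, a ratio of 2.61 (2.46 to 2.76). Lef1, a TCF family member that is itself a Wnt target, had 0.263 RPKM in Eed_null and 0.0355 RPKM in CJ7_WT, a ratio of 7.43 (6.64 to 8.33). Nkd1, which binds Dishevelled and dampens the signal, had 0.256 RPKM in Eed_null and 0.0679 RPKM in CJ7_WT, a ratio of 3.77 (3.24 to 4.4). In all 3 genes the Eed_null value was also above all 6 Elongin A libraries.

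Dkk1, which blocks Lrp6, had 14 reads in Eed_null and 3 in CJ7_WT, a ratio of 5.58 with an interval of 1.56 to 30.3. Notum had 1.14 RPKM in Eed_null and 1.75 RPKM in CJ7_WT, a ratio of 0.654 (0.582 to 0.734). Znrf3 had 4.3 RPKM in Eed_null and 4.88 RPKM in CJ7_WT, a ratio of 0.881 (0.871 to 0.891). Tcf7 was even at 1.65 RPKM in Eed_null and 1.6 RPKM in CJ7_WT. Nkd2, the relative of Nkd1, had a ratio of 1.96 (1.61 to 2.39). Rnf43, the relative of Znrf3, had 0.12 RPKM in Eed_null and 0.0562 RPKM in CJ7_WT, a ratio of 2.14 (1.78 to 2.59). Lgr5 was the reverse, with 72 reads in Eed_null and 184 in CJ7_WT, a ratio of 0.468 (0.351 to 0.618). Rnf43 and Lgr5 averaged under 0.1 RPKM over the pooled columns, so their ratios are not read as group differences. Sp5 had 1 read in Eed_null and 2 in CJ7_WT, too few for a ratio to be read.

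**Figure D4:**
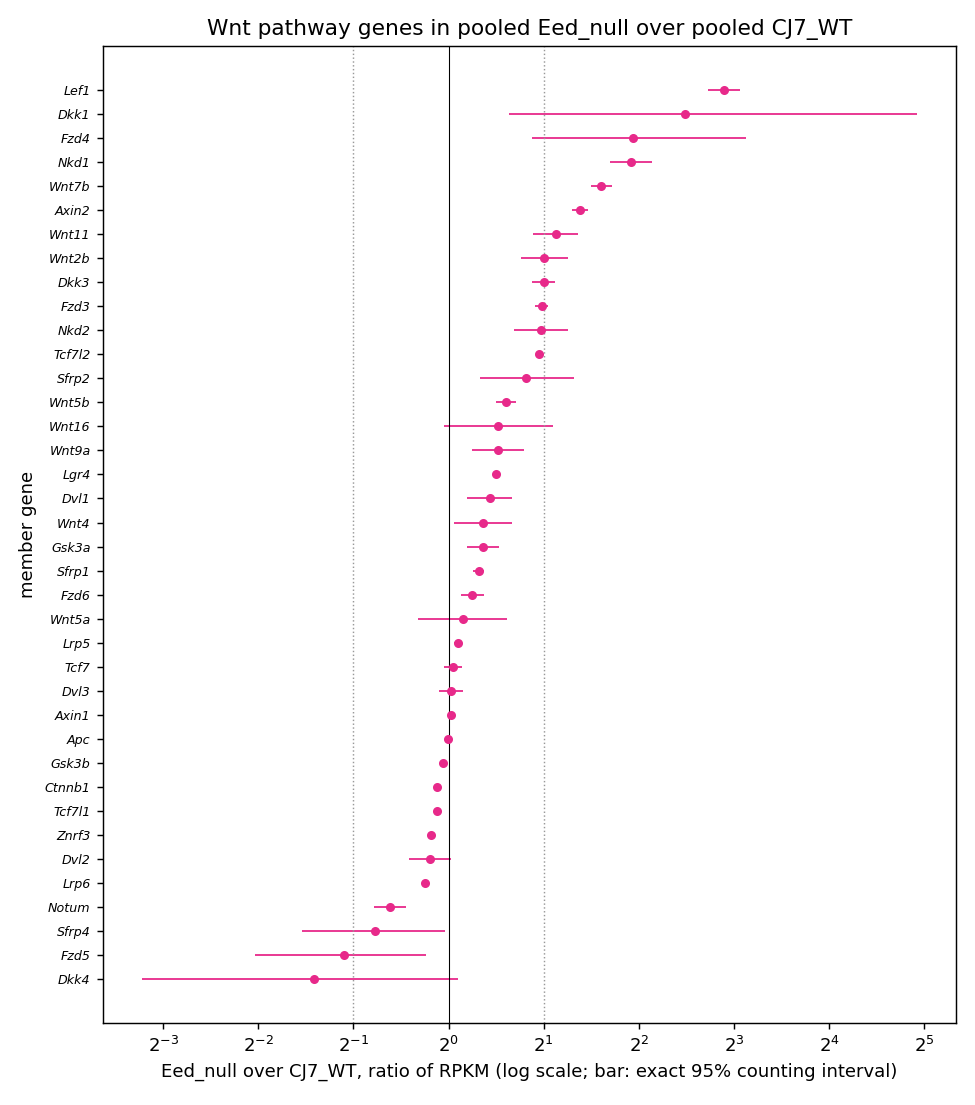
Ratio of RPKM in pooled Eed_null over pooled CJ7_WT (log axis) with its exact 95% counting interval, for the 38 Wnt pathway genes that averaged 0.1 RPKM or more over both columns. Dotted lines mark a ratio of 2 either way. Lef1 stands highest at 7.43, and Dkk1, Fzd4, Fzd5 and Dkk4 have wide intervals from few reads.

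Among ligands and receptors, Wnt7b and Fzd4 passed 2-fold. Wnt7b had 0.693 RPKM in Eed_null and 0.228 RPKM in CJ7_WT, a ratio of 3.04 (2.82 to 3.29). Fzd4 had 32 reads in Eed_null and 10 in CJ7_WT, a ratio of 3.83 (1.84 to 8.73). Fzd5 was the 1 member past 2-fold lower, with 16 reads in Eed_null and 41 in CJ7_WT, a ratio of 0.467 (0.245 to 0.85). Fzd3 had 0.961 RPKM in Eed_null and 0.487 RPKM in CJ7_WT, a ratio of 1.97 (1.88 to 2.07). Wnt2b and Wnt11, at ratios of 2.01 and 2.18, did not reach 2-fold once 0.1 RPKM was added to both values.

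The core of the pathway differed little. Tcf7l2 had 2.76 RPKM in Eed_null and 1.43 RPKM in CJ7_WT, a ratio of 1.93 (1.9 to 1.96), and was the exception. Ctnnb1, Tcf7l1, Gsk3b, Apc, Axin1, Lrp5 and Lrp6 had ratios between 0.844 (Lrp6) and 1.07 (Lrp5), and Gsk3a 1.28.

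Of the 38 members that averaged 0.1 RPKM or more, 6 (15.8%) were past 2-fold higher, where 6.12% of all 14890 genes were. They were Lef1, Dkk1, Fzd4, Wnt7b, Axin2 and Nkd1. The 1 lower member (2.63%) compares with 1.67% of all genes. The filter averages both columns: Lef1, Dkk1 and Nkd1 were under 0.1 RPKM in CJ7_WT and passed through their Eed_null value. At a mean of at least 0.5 RPKM, 1 of 21 members was past 2-fold higher, against 408 of 10460 genes. The larger share of members at the 0.1 RPKM filter thus rests on genes of low level. That filter also underlies the counts that follow. The members' median log2 ratio was 0.32, against 0.11 over all genes. Eed_null was above all 7 other columns in 21 members (55.3%), where 23.9% of all genes were, and below all of them in 5 members (13.2%), where 16.1% of all genes were. By role, 6 of 8 ligands, 4 of 7 receptors, 3 of 7 secreted antagonists, 0 of 1 receptor ubiquitin ligase, 5 of 11 transducers and 3 of 4 nuclear factors were highest in Eed_null. Being highest does not by itself show a difference from CJ7_WT. Tcf7, Dvl3, Axin1 and Wnt16 are counted here, but their counting intervals include an even ratio. Tcf7, Dvl3, Axin1 and Lrp5 were nearly even between the pooled columns, which both lay above all single libraries in these genes. Primitive endoderm markers, another cell type such cultures can hold, summed to 3.37 RPKM in Eed_null and 2.81 RPKM in CJ7_WT over 8 table lines, with Foxa2 at 0 in both. Lama1, most of that sum, had 1.7 RPKM in Eed_null and 2.3 RPKM in CJ7_WT. The other markers ran the other way: Gata6 had 0.622 RPKM in Eed_null and 0.185 RPKM in CJ7_WT, Gata4 had 0.365 RPKM in Eed_null and 0.123 RPKM in CJ7_WT, and Sox7 had 0.192 RPKM in Eed_null and 0.0388 RPKM in CJ7_WT. Sox17 and both lines of Dab2 were higher in Eed_null as well. The fibroblast sum was 26.1 RPKM in Eed_null and 27.5 RPKM in CJ7_WT. Fn1, the largest part of it, had 6.99 RPKM in Eed_null and 10.2 RPKM in CJ7_WT. Postn, Vim and Acta2 were lower in Eed_null as well, and all the remaining fibroblast markers were higher. The part of both cell types in the ratios was not tested, and more cells of a type cannot be told apart from more RNA per cell.

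Other genes of the pathway, listed outside the name rule, were followed too. Of 58 such genes 55 were in the table and 44 were tested, and limma called 0 of them in each of the 3 comparisons. Wls, the carrier that takes Wnt ligands to the cell surface, had 0.518 and 0.586 RPKM in EloA_K754M, 0.618 and 0.652 RPKM in EloA_K754R, and 0.332 and 0.364 RPKM in EloA_WT. Both mutants lay above EloA_WT, by 0.54 (SE 0.16, limma adjusted p = 0.203) for EloA_K754M and 0.71 (SE 0.16, limma adjusted p = 0.0676) for EloA_K754R on the log2 scale. Csnk1e, a kinase that acts on Dishevelled, had log2 changes of -0.45 (SE 0.16, limma adjusted p = 0.276) in EloA_K754M and -0.73 (SE 0.16, limma adjusted p = 0.0682) in EloA_K754R against EloA_WT. Wls and Csnk1e were picked out after their values were seen. In Eed_null, 4 of 46 of these genes (8.70%) were past 2-fold higher, near the 6.12% of all genes, and 0 were lower, where 1.67% of all genes were. The 4 were Apcdd1, Dact1, Dact3 and Csnk1e. Apcdd1, a membrane inhibitor of the pathway, had 1.15 RPKM in Eed_null and 0.372 RPKM in CJ7_WT. Dact1 and Dact3, which bind Dishevelled, had 0.282 and 0.43 RPKM in Eed_null, against 0.0806 and 0.105 RPKM in CJ7_WT. Dact1 passed the filter only through its Eed_null value. Csnk1e had 3.77 RPKM in Eed_null and 1.79 RPKM in CJ7_WT.

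Of 20 genes known as targets of β-catenin with TCF factors or of Tcf7l1 repression, 19 were in the table and 14 were tested. Limma called 0 of them in each comparison of the Elongin A groups. In Eed_null, 3 of 13 (23.1%) were past 2-fold higher, where 6.12% of all genes were, and 0 were lower, where 1.67% of all genes were. Cdx1 and Ephb2 were among the 3. Cdx1, a homeobox gene of the posterior embryo, had 0.478 RPKM in Eed_null and 0.0909 RPKM in CJ7_WT, and passed the filter only through its Eed_null value. The receptor gene Ephb2 had 1.3 RPKM in Eed_null and 0.479 RPKM in CJ7_WT. The share of 23.1% rests mostly on genes that passed the filter only through their Eed_null value. It is therefore not read as a result about this list. The 5 pluripotency genes on the list lay on both sides. Nanog had 33.6 RPKM in Eed_null and 39.1 RPKM in CJ7_WT, Esrrb 5.64 RPKM in Eed_null and 6.85 RPKM in CJ7_WT, and Tfcp2l1 15.1 RPKM in Eed_null and 18.7 RPKM in CJ7_WT. Klf2 had 13.5 RPKM in Eed_null and 10.2 RPKM in CJ7_WT, and Sall4 7.44 RPKM in Eed_null and 5.41 RPKM in CJ7_WT.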

How the data were processed

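Newly made RNA labelled with bromouridine was sequenced in 10 samples of 5 groups, and 1 table of intronic RPKM was deposited by the authors, with 6 columns of single libraries and 2 named averages of CJ7_WT and of Eed_null. Reads were aligned with BWA to mm9, per the submitters' processing notes; how reads were counted, on which annotation and strand, is not given in the sources used here. Of the 59 members 28 are overlapped by a gene on the opposite strand in GENCODE M21, among them Axin2, Notum, Lef1 and Dvl2, whose reads cannot be told apart without strand. In 5 members, Wnt5b, Ctnnb1, Dvl1, Dvl2 and Lgr5, an overlapping gene is protein-coding.

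RPKM of a gene were whole multiples of 1 read's worth in 20810 of 20817 genes (99.97%; tolerance 0.01 of a read, 0.06 for high values), the average columns included, which were therefore treated as pooled. With noise of 0.5% put on the values of 300 genes, 0 gave reads that small. Recovered reads are the smallest that are possible: 35.1% to 42% of genes with many reads had an odd number, so reads may have been counted in pairs and counting intervals may be too narrow. Intervals cover counting error only, since reads without molecular identifiers are not independent molecules.

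The 6 libraries entered 1 limma model (version 3.58.1, R 4.3.3, empirical Bayes with a variance trend) of log2(RPKM + 0.1), over 15161 genes averaging 0.1 RPKM or more. Two-sided p-values were adjusted by Benjamini-Hochberg over those genes and called under 0.05. Degrees of freedom were 3 (residual) and 2.76 (prior), and the median replicate SD was 0.19 on the log2 scale. With 2 libraries a group, changes as large as 2-fold are mostly missed: on simulated data few true 2-fold changes were called and most 4-fold ones were. That simulation also gave false calls, all in genes under 30 reads, so a call on few reads is unreliable in this fit; a filter of 30 reads was added as an alternative after this was seen. The voom alternative used recovered reads with TMM factors computed by a reimplementation. Eed_null was set against CJ7_WT as ratios with exact 95% intervals (scipy 1.17.1), and counts past 2-fold used RPKM plus 0.1.

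Members, gene lists, the naming rule and the tests were chosen with earlier results of these data known. Named were the 6 largest changes per comparison among members of at least 0.5 RPKM with groups that do not overlap, members past 2-fold in Eed_null, the 10 highest members, feedback targets and core transducers. The level of olfactory and vomeronasal receptor genes was added after the data were seen. Start regions came from RefSeq (GRCm38.p6) by symbol. The values of 1 gene of the target list are not reported here.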

Additional observations from a re-analysis of the deposited data

How the results depend on the processing

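The count of members called stayed at 0 in EloA_K754M against EloA_WT under every alternative run: another pseudocount, no filter or stricter filters, 3 other scalings, a replicate block, a fit of only the 2 groups, limma-voom and each library left out. Leaving out single libraries gave 0 to 0 calls among the members in each of the 3 comparisons. With the replicate number as a block, EloA_K754R against EloA_WT called 2 members, Dvl1 (limma adjusted p = 0.0331) and Dvl2 (limma adjusted p = 0.0370). EloA_K754M against EloA_K754R called 1, Axin2 (limma adjusted p = 0.0479). All-gene calls were 227, 1777 and 355 of 15161 genes in the 3 comparisons. The labels do not say that the numbers mark a shared day, and same-numbered libraries correlated by 0.152 to 0.197 over genes in their deviations, with only 2 numbers, so this pairing is not established. Limma-voom called 1 member in each of those comparisons, Fzd3, and 302, 1232 and 476 of 15154 genes in the 3 comparisons. Requiring 30 reads, an alternative chosen after seeing the data, called 0 of 31 members but 333, 1395 and 373 of 12458 genes. With chromosome medians removed, Dvl2 in EloA_K754R against EloA_WT reversed to 0.0098 on the log2 scale. In Eed_null, the 7 members past 2-fold became 0 with a pseudocount of 0.5, where 194 of 14890 genes were higher and 70 lower. A larger pseudocount shrinks the ratio of low genes by construction. They became 2 with a mean of at least 0.5 RPKM, and 15 at a fold of 1.5. The 2 were 1 higher and 1 lower of 21 members, against 408 higher and 129 lower of 10460 genes. The 15 were 13 higher and 2 lower of 38 members, against 2387 higher and 800 lower of 14890 genes. No pooled column could be split or left out. Sp5, Dkk1, Fzd4, Fzd5 and Dkk4 rest on few reads.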
